A study of Mus musculus with 2 samples.

Results

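The venous endothelial cells of old-aged mouse hindlimb muscle were taken here as the 267 barcodes, of 14984 kept cells in all, that carried transcripts of blood vessel endothelium together with transcripts typical of veins and venules. A kept cell was venous-gated when its UMIs (unique molecular identifiers, one per captured transcript) summed to at least 3 over the endothelial genes Pecam1, Cdh5, Kdr, Emcn, Egfl7 and Esam, to at most 1 over Pdgfra, Ptprc, Pax7 and Rgs5, which mark fibroblasts, leukocytes, muscle stem cells and mural cells, and to at least 3 over Vwf, Selp, Ackr1 and Lrg1. The sum over those venous genes also had to be no smaller than that over the arterial genes Sema3g, Gja5, Bmx and Gja4. The members were thus chosen by measured values, and the levels of these 18 genes are a description of the choice and not a finding.

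The data were 2 single-cell RNA-Seq libraries of hindlimb muscle cells from aged (24 months) female C57Bl/6J mice. The ATRA+agonist library came from muscle injected 3 times with all-trans retinoic acid (ATRA, the active vitamin A metabolite), the RXRα agonist CD3254 and the RARγ agonist BMS961. The DMSO vehicle library came from muscle injected with the solvent only. Cells of 2 mice were pooled per library, so that 1 library stands for each group, animals cannot be told apart and no difference between the groups has a replicate check. No p-value is therefore given, intervals cover counting error only, and a gene is said to have risen or fallen when its level differed at least 2-fold and it had at least 30 UMIs over both libraries.

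Veins and venules collect blood from the capillaries, and postcapillary venules are the main site where leukocytes leave the blood. Their endothelium stores von Willebrand factor and P-selectin in Weibel-Palade bodies, displays chemokines on the scavenging receptor Ackr1, and shows E-selectin, Icam1 and Vcam1 to rolling and adherent leukocytes. Endothelial cells also present antigen: MHC class I is made by nearly all cells, whereas MHC class II in endothelium depends on interferon gamma and the transactivator Ciita.

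The ATRA+agonist library held 10444 barcodes and 65197625 UMIs, and the DMSO vehicle library 17394 barcodes and 109343486 UMIs. After the filters 7467 and 7517 cells were kept, with medians of 4887 and 4959 UMIs. The libraries shared 43 barcode sequences, and 0 of these belonged to venous-gated cells. Outside the filters, 1 ATRA+agonist and 13 DMSO vehicle barcodes would have passed the gate. Hemoglobin transcripts, which come from red blood cells, summed to 307 CPM (counts per 1000000 UMIs) in the ATRA+agonist and 896 CPM in the DMSO vehicle venous-gated cells, and reached 3 UMIs in 45 and 129 of them. The part of this difference in the results was not tested.

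The gate passed 126 ATRA+agonist and 141 DMSO vehicle cells, and these cells were not of 1 kind. A split set after the values were seen separated them by 3 or more UMIs of marker genes. In 53 ATRA+agonist and 68 DMSO vehicle cells, Selp, Ackr1 and Lrg1 together gave at least 3 UMIs (Selp/Ackr1/Lrg1 cells). A further 55 and 63 cells fell below this and carried at least 3 UMIs of the capillary genes Car4, Cd300lg, Gpihbp1, Rgcc and Btnl9 (Vwf/capillary cells). Lymphatic genes (Prox1, Lyve1, Ccl21a and Mmrn1) reached 3 UMIs in 11 and 7 cells, and 7 and 3 cells met none of these limits.

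The sums that follow use genes of the gate and of the split, so that they describe the choice of cells and support nothing. For the Selp/Ackr1/Lrg1 cells the median sum over the venous gate genes was 36 UMIs in the ATRA+agonist and 28.5 UMIs in the DMSO vehicle library, and the median sum over the capillary genes was 1 and 1.5 UMIs. In the Vwf/capillary cells the same medians were 3 and 3 UMIs for the venous genes but 13 and 16 UMIs for the capillary genes. Vwf alone admitted nearly all of the latter, since it was the leading gate gene in 54 of 55 and 62 of 63 cells. Plvap, which forms the diaphragms of venular fenestrae and caveolae and was not used by the gate, had a UMI in 86.8% and 89.7% of the Selp/Ackr1/Lrg1 cells and in 1.82% and 20.6% of the Vwf/capillary cells.

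The limit of 3 UMIs therefore lay within a continuum. Just inside it, 36 ATRA+agonist and 42 DMSO vehicle cells had a venous sum of exactly 3, with median capillary sums of 11.5 and 14 UMIs. Just outside it, 90 and 102 cells had a sum of 2, with median capillary sums of 11.5 and 12 UMIs. Of markers that neither the gate nor the split used, Plvap (above) and Nr2f2, with a UMI in 84.9% and 83.8% of Selp/Ackr1/Lrg1 cells and in 23.6% and 33.3% of Vwf/capillary cells, were found more often in the former, though some of the former carried 10 or more UMIs of the capillary genes. In CPM, Vcam1, Sele, Il1r1 and Il6st were also higher in the former in both libraries, but Icam1 and Lcn2 were not higher in both. Ephb4 was lower in the former, with 64.5 and 99.3 CPM against 89.1 and 106 CPM. So was Ackr3, with 64.5 and 44.3 CPM against 78.8 and 46.0 CPM. All of the cells that passed the gate are therefore called venous-gated cells, and values for the Selp/Ackr1/Lrg1 cells are given beside many of the results. Detection depth differed as well, with medians of 8051 and 8112 UMIs in the Selp/Ackr1/Lrg1 cells and 5133 and 5197 UMIs in the Vwf/capillary cells.

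**Figure D1:**
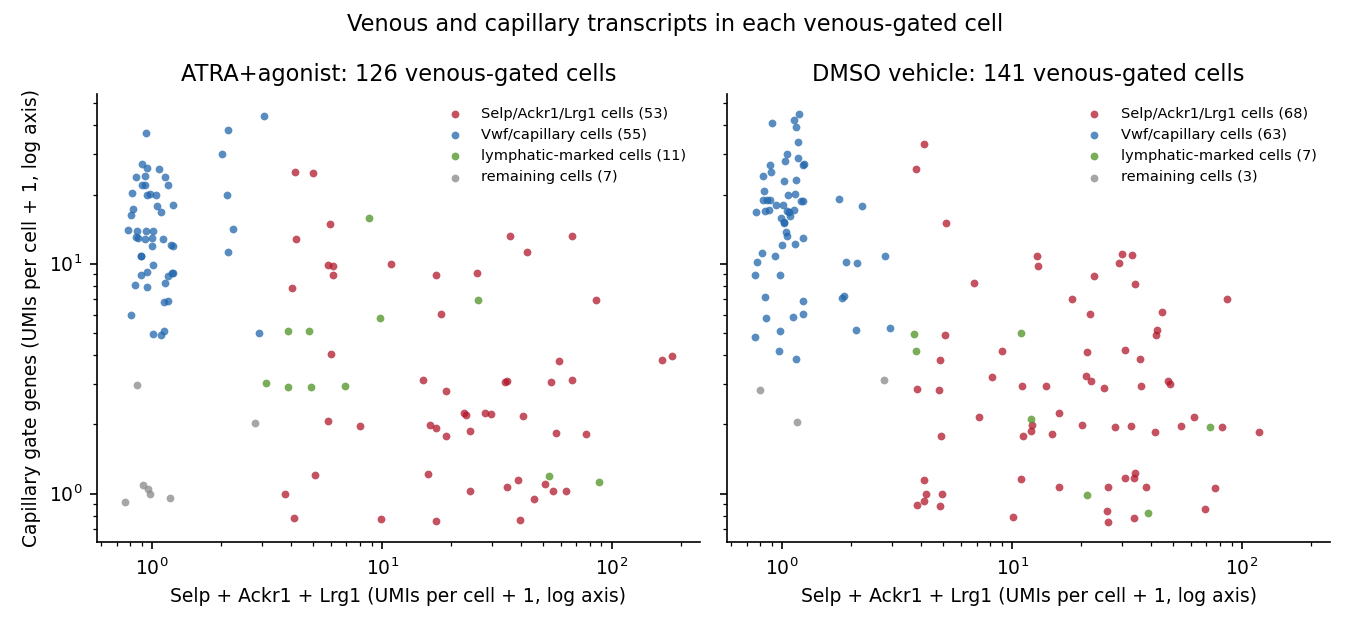
Each point is 1 venous-gated cell, placed by its summed Selp, Ackr1 and Lrg1 UMIs (x axis) and its summed UMIs of the 5 capillary genes (y axis), both plus 1 on log axes with a small random shift, in the ATRA+agonist (126 cells) and DMSO vehicle (141 cells) libraries, and colored by the split described above. Cells rich in Selp, Ackr1 and Lrg1 lie at low capillary counts and the Vwf/capillary cells lie at high capillary counts in both libraries.

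Compared with the capillary-gated cells (1674 and 1535 cells), the venous-gated cells had the higher level in both libraries for 9 of 10 venous markers that the gate did not use. The Selp/Ackr1/Lrg1 cells alone had it for 7 of the 10, and the Vwf/capillary cells alone for 6. Of 13 arterial markers outside the gate, 3 were higher in venous-gated cells in both libraries. The share over all genes is not given here, so that these counts are descriptions. Of the 9, Lcn2 stood at 0 CPM in ATRA+agonist Selp/Ackr1/Lrg1 cells and at 0 and 0 CPM in Vwf/capillary cells. Ephb4 was below the capillary-gated level in ATRA+agonist Selp/Ackr1/Lrg1 cells (64.5 against 70.9 CPM). Plvap stood at 782 CPM in ATRA+agonist and 945 CPM in DMSO vehicle venous-gated cells, against 13.5 and 17.5 CPM in capillary-gated cells. Nr2f2, the transcription factor that specifies vein identity, stood at 339 and 323 CPM against 46.1 and 46.2 CPM. The exception among the 10 venous markers was Ackr3, the scavenger receptor for Cxcl12, with 81.9 and 55.6 CPM against 94.5 and 70.4 CPM. All of these ratios describe classes cut from the same libraries and carry no test.

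Outside the gate genes, the largest venous to capillary ratios belonged to Plvap, Cytl1, Tll1, Slco2a1, Pcdh7, Mctp1, Prkg1, Vcam1, Sele, Cp, Tagln and Chp2. Slco2a1, a prostaglandin transporter, stood at 208 and 246 CPM in venous-gated and at 2.84 and 4.75 CPM in capillary-gated cells. Sele, which encodes E-selectin, was found in 21 and 26 venous-gated cells and stood at 0.355 and 0.365 CPM in capillary-gated cells. Cytl1, a secreted cytokine-like protein, was not venous alone, since arterial-gated cells held 743 and 191 CPM beside 397 and 272 CPM in venous-gated cells. Vcam1 was not venous alone either, with 232 and 422 CPM in arterial-gated and 569 and 457 CPM in venous-gated cells. Prkg1 (171 and 116 CPM) and Cp (131 and 153 CPM) were also found in arterial-gated cells, whereas Sele stood at 0 and 0 CPM there. At the other end, Timp4, an inhibitor of metalloproteinases, stood at 235 and 234 CPM against 930 and 1092 CPM in capillary-gated cells. Fmod and Thbs4, which are tendon and matrix genes, were also among the lowest ratios, and in capillary-gated cells they stood at 94.3 and 189 CPM and at 96.8 and 335 CPM.

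Venous-gated cells made up a similar share of each library. They were 1.69% (exact Clopper-Pearson 95% interval 1.41% to 2.01%) of the ATRA+agonist and 1.88% (1.58% to 2.21%) of the DMSO vehicle kept cells, a ratio of 0.900 with a 95% interval of 0.709 to 1.14. Of the endothelial-gated cells they were 5.52% (126 of 2284) and 6.25% (141 of 2257), a ratio of 0.883 (0.699 to 1.11). The Selp/Ackr1/Lrg1 cells alone were 0.710% and 0.905% of kept cells, with a ratio of 0.785 (0.549 to 1.12). Each of these intervals includes 1, and a difference in share was not detectable at these cell numbers.

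Across all 7093 genes with at least 30 UMIs in the venous-gated cells, 178 (2.51%) rose and 171 (2.41%) fell at least 2-fold with ATRA+agonist. The 95% counting interval of the log2 ratio lay above 0 for 728 genes (10.3%) and below 0 for 575 genes (8.11%), and the median log2 ratio of all genes was 0.04. In the Selp/Ackr1/Lrg1 cells, 5010 genes were measured at this depth, of which 170 (3.39%) rose and 172 (3.43%) fell. In the capillary-gated cells 11933 genes were measured, of which 235 rose and 455 fell. These shares and counts are the background for the gene groups below, and log2 ratios are of CPM, ATRA+agonist over DMSO vehicle. In most of the lists below, a count of 0 or 1 genes is near this background and is no result about the list.

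MHC class II transcripts had the lowest median ratio of all gene lists measured in the venous-gated cells. Of the 11 genes of the class II list, 8 had enough UMIs and 8 of 8 fell, with a median log2 ratio of -3.68. Cd74, the invariant chain that guides class II molecules through the cell, stood at 156 CPM in ATRA+agonist and 2203 CPM in DMSO vehicle cells, a log2 ratio of -3.82 (-4.08 to -3.57). It was detected in 20 of 126 and in 88 of 141 cells.

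The chains that form the peptide groove fell with it. H2-Aa, the alpha chain of the I-A molecule, stood at 57.7 and 636 CPM (log2 ratio -3.46). H2-Ab1, its beta chain, stood at 54.2 and 545 CPM (-3.33). H2-Eb1, the beta chain of the I-E molecule, stood at 40.4 and 616 CPM (-3.93). These chains were detected in at most 19 ATRA+agonist cells and in at least 79 DMSO vehicle cells.

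The genes that load peptide on class II molecules and the gene that switches the locus on were lower as well. H2-DMa had 9 UMIs against 120 (log2 ratio -3.55) and H2-DMb1 had 17 against 77 (-1.99). H2-DMb2 had 0 UMIs against 65, which is at least 19.0-fold lower when 3 counts over all ATRA+agonist cells are taken as the limit of detection. Ciita, the class II transactivator, gave 1 UMI in 1 ATRA+agonist cell and 30 UMIs in 20 DMSO vehicle cells, with a 95% interval of the log2 ratio from -10.07 to -2.13.

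Of the class II genes looked for in the RefSeq promoter table, H2-Ab1 had no entry, the RefSeq start of H2-DMb2 lies inside its annotated gene, and H2-Aa and H2-Eb1 are shown by the 150 bases before their RefSeq start (build GRCm38.p6), since their transcripts fell together. Capitals mark GCAAC, the core of the X box bound by the RFX complex, and ATTGG or its complement CCAAT, the core of the Y box bound by NF-Y. In class II genes, the factors bound to these boxes are known to recruit Ciita.
H2-Aa, chr17:34287824-34287973, minus strand: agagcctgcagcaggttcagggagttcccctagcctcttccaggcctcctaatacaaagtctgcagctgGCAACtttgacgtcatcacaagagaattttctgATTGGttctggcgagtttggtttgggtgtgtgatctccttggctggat
H2-Eb1, chr17:34305717-34305866, plus strand: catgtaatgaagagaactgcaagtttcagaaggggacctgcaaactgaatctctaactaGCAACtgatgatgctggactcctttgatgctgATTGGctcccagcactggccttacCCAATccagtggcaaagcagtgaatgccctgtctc

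Read from the start site, GCAAC began 81 bases upstream in H2-Aa and 91 bases upstream in H2-Eb1, and ATTGG began 48 and 59 bases upstream in H2-Aa and H2-Eb1. H2-Eb1 held a second match on the opposite strand 35 bases upstream. On either strand, ATTGG occurred in 24.5% and GCAAC in 19.6% of 32851 promoter windows of the same length, so that a match of these letters is frequent and marks no site by itself.

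The lower level came with fewer cells carrying class II transcripts. At least 3 UMIs of H2-Aa, H2-Ab1, H2-Eb1 and Cd74 together were found in 15 of 126 ATRA+agonist cells (11.9%, exact interval 6.82% to 18.9%) and in 86 of 141 DMSO vehicle cells (61.0%, 52.4% to 69.1%). With each cell thinned to 1000 UMIs, which left out 1 shallower ATRA+agonist cell, at least 1 such UMI was found in 11.2% and 56.7% of cells. Across the vehicle cells the summed level ran from 0 to 21496 CPM with a median of 2125 CPM, whereas the ATRA+agonist cells had a median of 0 and a maximum of 5510 CPM. The cells of both libraries overlapped, because some cells of each had none.

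The Selp/Ackr1/Lrg1 cells and the Vwf/capillary cells both showed this, but the few lymphatic-marked cells did not. In the Selp/Ackr1/Lrg1 cells, at least 3 class II UMIs were found in 20.8% (11 of 53) and 73.5% (50 of 68) of cells, and the median log2 ratio of the class II list was -3.72. In the Vwf/capillary cells they were found in 0 of 55 cells, for which the exact interval reaches 6.49%, and in 50.8% (32 of 63). In the lymphatic-marked cells they were found in 4 of 11 (36.4%, 10.9% to 69.2%) and 2 of 7 cells (28.6%, 3.67% to 71.0%). Capillary-gated cells had such UMIs in 0.299% and 13.0% of cells at medians of 3143.5 and 3291 UMIs, and arterial-gated cells in 6.52% and 55.3%. With cells thinned to 1000 UMIs, at least 1 UMI was found in 2.95% and 14.6% of capillary-gated and in 7.61% and 54.0% of arterial-gated cells. The class II list fell in these classes too, with medians of -3.30 and -3.76.

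Fibroblasts, which should lack class II, are given for comparison. They had at least 3 such UMIs in 0.699% and 0.523% of cells, at medians of 9405.5 and 7559 UMIs, which are deeper than the venous-gated medians of 6425 and 6252 UMIs. Leukocytes, the professional presenting cells among them, had them in 75.8% and 68.4% of cells. The 12 leukocyte markers summed to 21 and 13 UMIs over all venous-gated cells, with 7 and 5 of the 12 at 0, and the gate admitted at most 1 Ptprc UMI a cell.

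**Figure D2:**
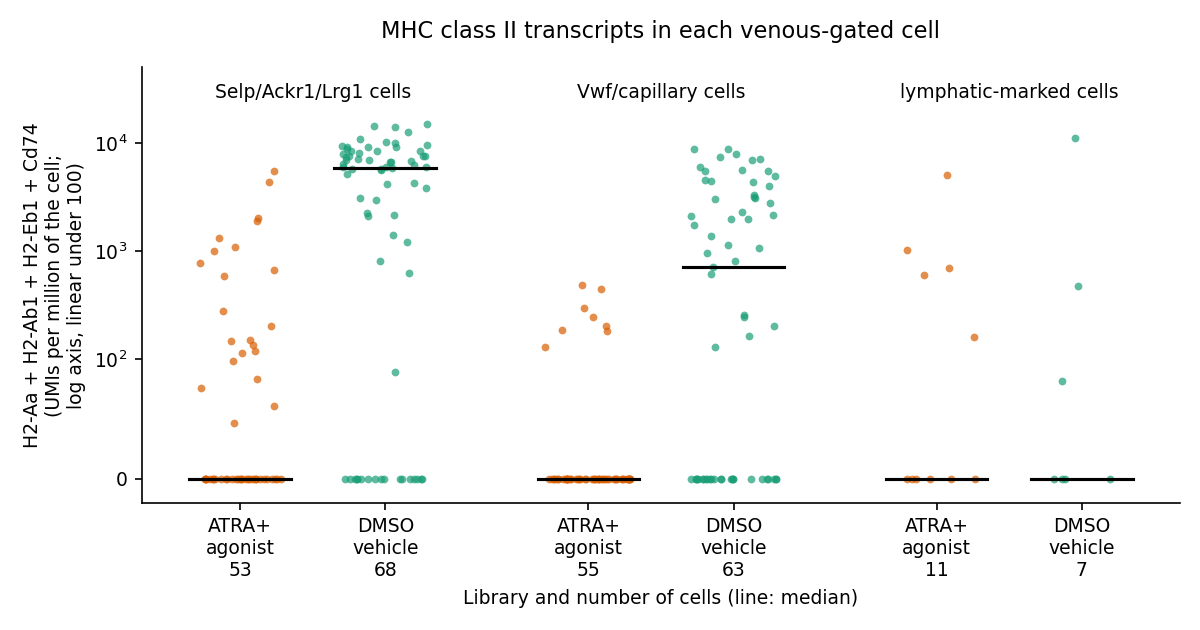
The summed level of H2-Aa, H2-Ab1, H2-Eb1 and Cd74 in single venous-gated cells (CPM of the cell, log axis that is linear under 100), split into Selp/Ackr1/Lrg1, Vwf/capillary and lymphatic-marked cells and by library, with a line at each median. In the Selp/Ackr1/Lrg1 cells the median is 0 in the ATRA+agonist and 5813 in the DMSO vehicle library, and in the Vwf/capillary cells it is 0 and 713. In the lymphatic-marked cells (11 and 7) it is 0 and 0.

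MHC class I genes were lower with ATRA+agonist by a smaller amount. All 20 genes of the list were measured, the median log2 ratio was -0.74, 5 fell at least 2-fold and 17 had an interval below 0. H2-K1, a classical heavy chain, stood at 1383 and 2496 CPM (log2 ratio -0.85), and B2m, the light chain shared by class I molecules, stood at 1584 and 2856 CPM (-0.85). Both lie short of the 2-fold rule.

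The class I genes that fell were the nonclassical heavy chains H2-Q6 and H2-Q7 and parts of the peptide supply. H2-Q7 stood at 206 and 536 CPM (log2 ratio -1.38). Tap1, which carries peptides into the endoplasmic reticulum, stood at 60.0 and 197 CPM (-1.72). Psmb8 and Psmb9, immunoproteasome subunits, had log2 ratios of -1.04 and -1.06. The H2-Q genes are near copies of each other, so that the split of reads between them is uncertain. The list had a median of -0.76 in the Selp/Ackr1/Lrg1 cells, where 3 of 19 genes fell. Capillary-gated cells had a median of -0.80, with 8 of 20 genes falling.

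Interferon-induced genes divided into members that fell and members that did not. Of 40 measured genes 13 fell and 0 rose, 23 had an interval below 0 and 4 above, and the median log2 ratio was -0.56. The Selp/Ackr1/Lrg1 cells had a median of -0.35, with 9 of 38 genes falling and 1 rising. Capillary-gated cells had a median of -0.75, with 16 of 40 genes falling and 0 rising. In the venous-gated cells, single genes were as follows. Gbp2, a guanylate-binding GTPase that interferon gamma induces, stood at 181 and 852 CPM (log2 ratio -2.23). Igtp, an immunity-related GTPase, stood at 78.4 and 418 CPM (-2.41).

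Among genes with at least 100 UMIs the largest fall belonged to Ubd, a ubiquitin-like modifier induced by interferon gamma. It gave 1 UMI in 1 ATRA+agonist cell and 328 UMIs in 53 DMSO vehicle cells, a log2 ratio of -8.17 whose interval ran from -13.48 to -5.68. A single vehicle cell held 117 of these UMIs, and 21 vehicle Vwf/capillary cells carried it against 0 ATRA+agonist ones. Cd274, which encodes the checkpoint ligand PD-L1, stood at 153 and 563 CPM (-1.88), and Zbp1, a sensor of nucleic acids, had 6 UMIs against 81 (-3.57). Irf8 (-1.28), Gbp7 (-1.59), Gbp4 (-1.37), Gbp3 (-1.18) and Ifi47 (-1.10) fell as well.

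Other interferon genes did not follow. Iigp1, an immunity-related GTPase and the most abundant gene of the list, stood at 3107 and 3041 CPM, a log2 ratio of 0.03 (-0.04 to 0.11). Isg15, a ubiquitin-like modifier typical of type I interferon, stood at 553 and 539 CPM (0.04). Irf1, the transcription factor that interferon gamma induces, stood at 749 and 524 CPM, with a log2 ratio of 0.51 in all venous-gated cells and 0.92 (0.67 to 1.16) in the Selp/Ackr1/Lrg1 cells. Usp18, which removes Isg15 and dampens type I signalling, stood at 100 and 51.6 CPM (0.96), just short of the rule, and rose in the Selp/Ackr1/Lrg1 cells (1.23).

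Gbp2 is shown by its 150 bases before the RefSeq start for the element through which interferon-activated factors act. Capitals mark the complement of GAAANNGAA, the core of the interferon-stimulated response element, which begins 58 bases upstream and which 3.95% of the 32851 windows hold on either strand.
Gbp2, chr3:142620513-142620662, plus strand: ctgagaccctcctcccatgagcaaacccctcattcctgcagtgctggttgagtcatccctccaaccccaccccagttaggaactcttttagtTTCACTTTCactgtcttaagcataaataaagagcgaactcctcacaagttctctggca

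**Figure D3:**
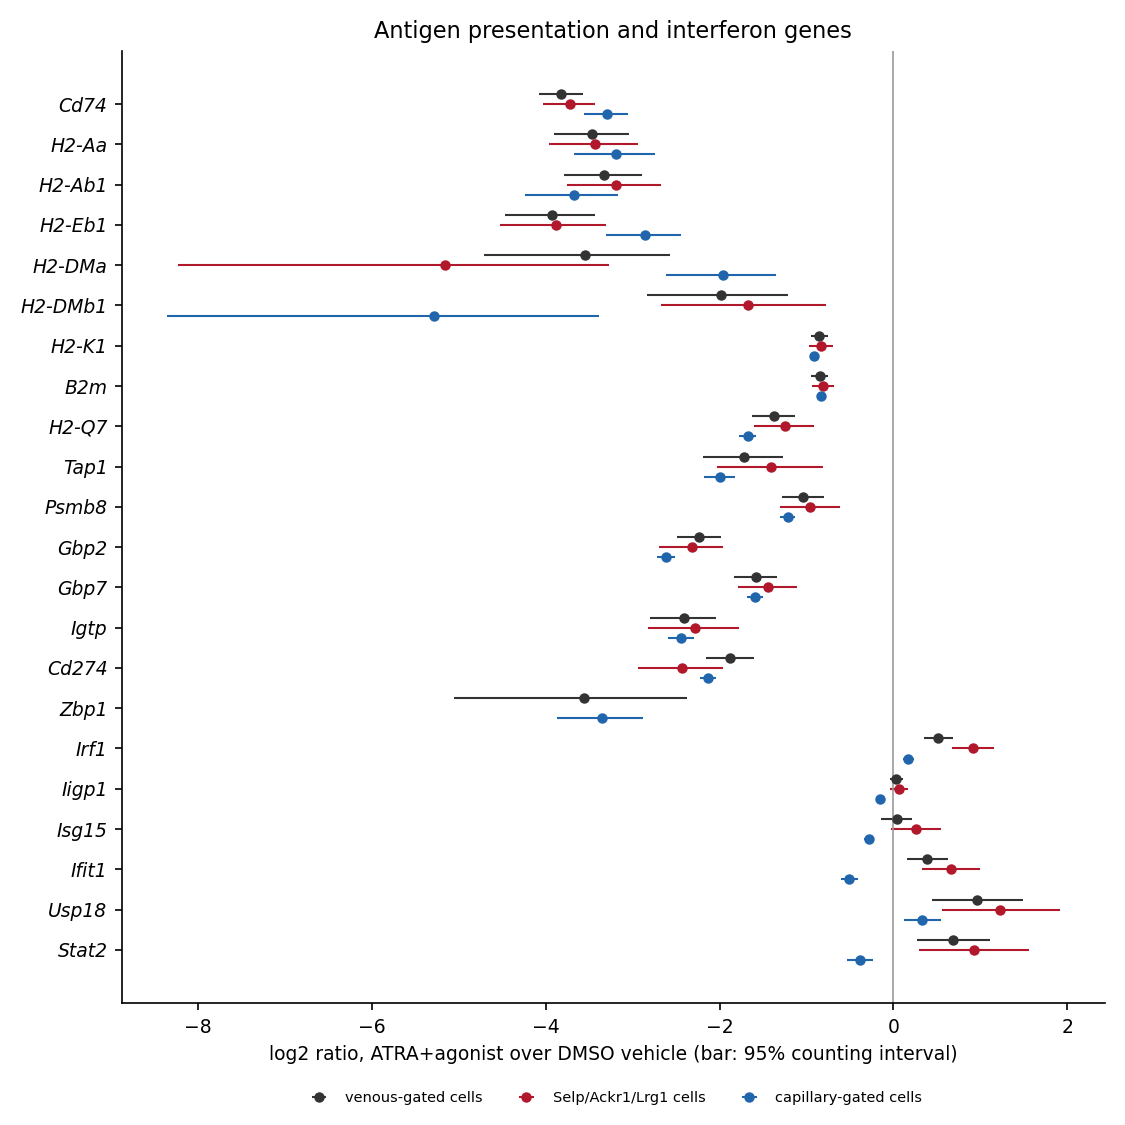
The log2 ratio of CPM (ATRA+agonist over DMSO vehicle, x axis) of 22 class II, class I and interferon genes, with 95% counting intervals as bars, in all venous-gated cells, in Selp/Ackr1/Lrg1 cells and in capillary-gated cells, for genes with at least 30 UMIs in the set. Class II genes lie left of -1.5 in each set shown, whereas Irf1, Iigp1 and Isg15 lie near or above 0 in venous-gated cells.

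Across single cells, the Spearman correlation of class II with class I levels was 0.546 over the 141 DMSO vehicle and 0.175 over the 126 ATRA+agonist venous-gated cells, and 0.782 and 0.304 over the 68 and 53 Selp/Ackr1/Lrg1 cells. For class II against the sum of Gbp2, Gbp4 and Gbp7 the values were 0.361 and 0.121 over all venous-gated cells, 0.548 and 0.328 over the Selp/Ackr1/Lrg1 cells, and 0.296 and -0.183 over the Vwf/capillary cells. At least 1 class II UMI was found in 36 of 126 ATRA+agonist and 94 of 141 DMSO vehicle venous-gated cells, and the other cells are tied at 0. The part of these ties in the lower ATRA+agonist values was not tested. The points share 1 library each and differ in depth, and the correlations are descriptions without a test.

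The adhesion molecules that arrest leukocytes in venules did not share the fall of the antigen presentation genes. Of 15 measured genes of the adhesion and transmigration list 0 rose and 0 fell, and the median log2 ratio was 0.16. Selp, which encodes P-selectin, stood at 1308 and 773 CPM in the venous-gated cells and at 2324 and 1235 CPM in the Selp/Ackr1/Lrg1 cells. Its log2 ratios were 0.76 (0.63 to 0.89) and 0.91 (0.77 to 1.05), and 1 ATRA+agonist cell held 149 of its 1134 UMIs. Selp and the other gate genes helped to choose the cells, so that these are descriptions. Selp is among the 15 genes, so that the counts and the median of this list rest partly on the gate.

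Vcam1, the ligand of the integrin that slows lymphocytes and monocytes, stood at 569 and 457 CPM (log2 ratio 0.31). In the Selp/Ackr1/Lrg1 cells it stood at 972 and 623 CPM (0.64, 0.44 to 0.85). In the Vwf/capillary cells it fell from 193 to 34.3 CPM (-2.49), and in capillary-gated cells from 22.7 to 6.74 CPM (-1.75). The difference between these classes was not tested. When likely doublets were called with a wide neighbourhood, which removed 38 of 53 and 29 of 68 Selp/Ackr1/Lrg1 cells, the ratios in the remaining venous-gated cells were -0.88 for Selp and -2.27 for Vcam1.

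Of the 15 genes 8 had a positive and 7 a negative ratio. Icam1, which firmly holds rolling leukocytes, stood at 566 and 474 CPM (log2 ratio 0.26) and in the Selp/Ackr1/Lrg1 cells at 603 and 466 CPM (0.37). Sele stood at 136 and 114 CPM (0.25, with an interval from -0.13 to 0.64). Over the alternatives, Sele ranged from -0.67, with the wide doublet neighbourhood, to 0.41. Mcam, a junctional adhesion molecule, had 41 and 67 UMIs in the venous-gated cells (-0.52), and it was the 1 gene of the list that fell in the Selp/Ackr1/Lrg1 cells, with 13 and 36 UMIs (-1.14, -2.18 to -0.19). With the wide doublet neighbourhood Mcam had a ratio of 0.40.

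Among 13 measured chemokines and cytokines 1 rose and 1 fell, and the median log2 ratio was -0.33. The Selp/Ackr1/Lrg1 cells had a median of 0.06, where Cxcl1 (1.27), Cxcl12 and Il33 rose and Tnfsf10 fell. Without the highest cell of each library for each gene, 1 of these 3 rises stayed past the rule. Cxcl12, which holds and recruits Cxcr4-bearing leukocytes and progenitors, stood at 1179 and 673 CPM (log2 ratio 0.81, 0.67 to 0.95) and rose in the Selp/Ackr1/Lrg1 cells from 289 to 649 CPM (1.17). Ackr1, a gate gene which carries chemokines across the venule wall, stood at 311 and 455 CPM (-0.55). The interferon-induced chemokines Cxcl9 and Cxcl10 stood at 411 and 659 CPM (-0.68) and at 324 and 461 CPM (-0.51).

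Tnfsf10, which encodes the death ligand TRAIL, was the gene of the list that fell, from 287 to 126 CPM (log2 ratio -1.19). Il33, a nuclear alarmin, was the gene that rose, from 35.4 to 86.5 CPM (1.29). That rise rested on 1 ATRA+agonist cell with 46 of its 75 UMIs, and without the highest cell of each library the ratio was 0.66. Without that ATRA+agonist cell alone it was -0.08. Il6 stood at 111 and 72.8 CPM (0.60).

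Genes of the Weibel-Palade bodies and of hemostasis had a median log2 ratio of -0.03, with 0 of 22 rising and 2 falling. Vwf, a gate gene and the storage protein of the granules, stood at 1071 and 910 CPM (0.23). F8, coagulation factor VIII, fell from 50.6 to 12.7 CPM (11 against 50 UMIs, log2 ratio -1.99). Mmrn2, a matrix glycoprotein of endothelium, stood at 279 and 404 CPM (-0.53), and Procr, the receptor for protein C, at 88.8 and 116 CPM (-0.39).

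A coagulation factor outside that list, F5 (factor V), was among the largest falls of all genes. It had 33 UMIs in 10 ATRA+agonist cells and 231 UMIs in 26 DMSO vehicle cells, a log2 ratio of -2.62 (-3.19 to -2.09). Every one of these UMIs lay in Selp/Ackr1/Lrg1 cells, and the capillary-gated cells gave 3 and 1 UMIs. The highest cells held 17 and 50 of the UMIs, and without them the ratio was -3.31.

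**Figure D4:**
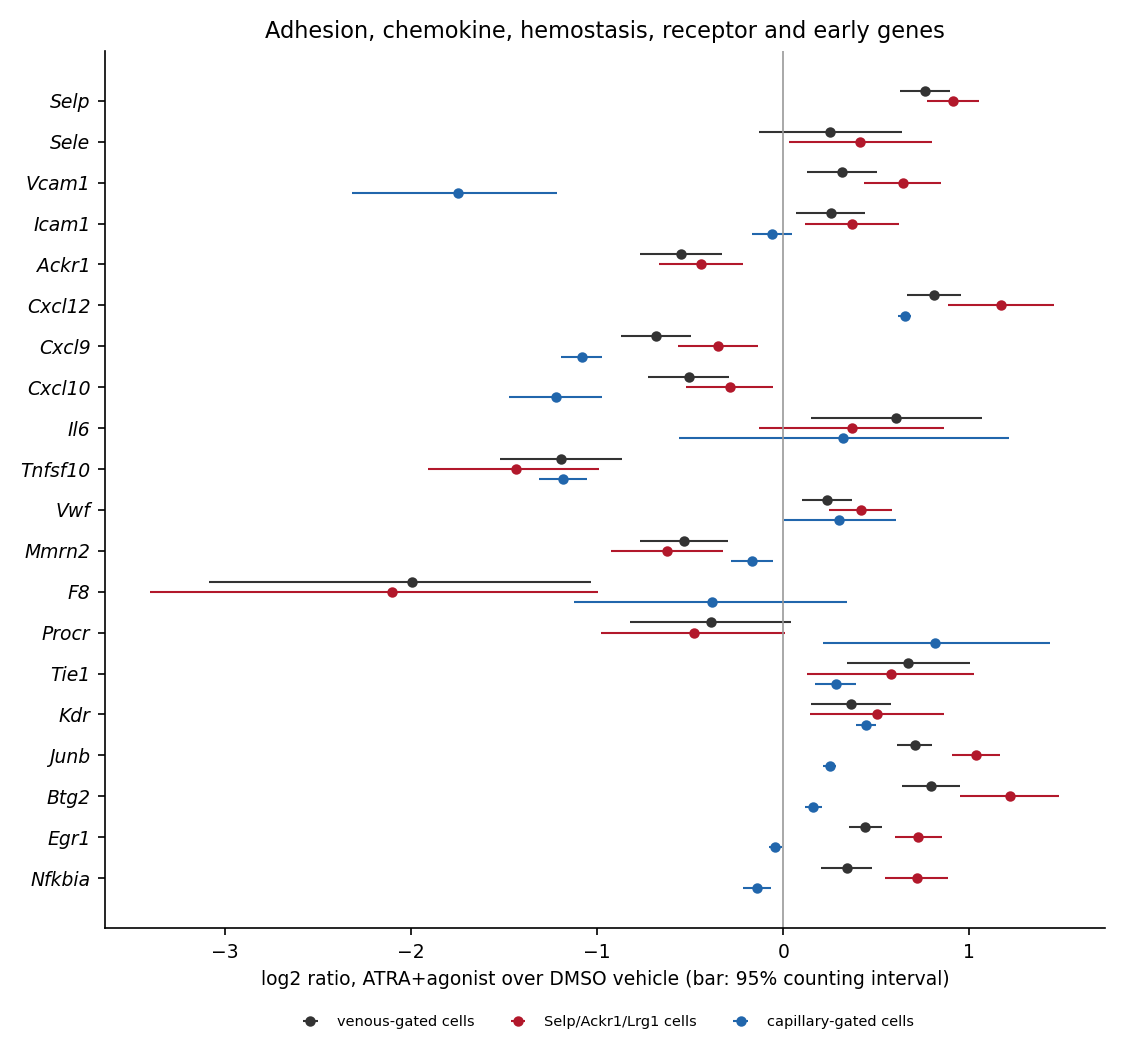
The log2 ratio of CPM (ATRA+agonist over DMSO vehicle, x axis) of 20 adhesion, chemokine, hemostasis, receptor and immediate early genes, with 95% counting intervals as bars, in venous-gated, Selp/Ackr1/Lrg1 and capillary-gated cells. In the Selp/Ackr1/Lrg1 cells Selp, Cxcl12, Junb and Btg2 lie above 0 and Tnfsf10 and F8 lie below -1, whereas Vcam1 lies above 0 in venous-gated but below -1 in capillary-gated cells.

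Of the 26 genes of the retinoid pathway list 12 had at least 30 UMIs, 0 rose and 0 fell, and the median log2 ratio was 0.01. The median was 0.24 over 8 genes in the Selp/Ackr1/Lrg1 cells and -0.60 over 7 genes in the Vwf/capillary cells, again with 0 genes past the rule. Cyp26b1, which degrades retinoic acid and is itself induced by it, stood at 151 and 110 CPM (log2 ratio 0.45, 0.08 to 0.83), and Dhrs3, a retinal reductase, at 115 and 80.9 CPM (0.51, 0.07 to 0.95). The receptor gene Rarb, a direct target of retinoic acid receptors, had 14 UMIs in 10 cells and 4 UMIs in 4 cells. Rbp7, a retinol-binding protein of capillary endothelium, stood at 68.1 and 113 CPM (-0.74), and Tgm2, a transglutaminase, at 354 and 471 CPM (-0.41). Stra6, the retinol importer, had 0 and 1 UMIs.

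Immediate early genes were mostly higher with ATRA+agonist. The median log2 ratio of 19 genes was 0.37, 12 had an interval above 0 and 1 below, and 0 passed the 2-fold rule in all venous-gated cells. The median was 0.56 in the Selp/Ackr1/Lrg1 cells, where 3 genes rose. These were Junb (1387 to 2840 CPM, log2 ratio 1.03), Btg2 (325 to 754 CPM, 1.22) and Egr3 (31.9 to 73.4 CPM, 1.20). In capillary-gated cells the median was 0.07.

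The NF-kB response list had a median of 0.24, with 1 of 22 genes rising and 0 falling. Nfkbia, the inhibitor that NF-kB induces as its own brake, stood at 1072 and 847 CPM (log2 ratio 0.34) and in the Selp/Ackr1/Lrg1 cells at 1466 and 892 CPM (0.72). In the Vwf/capillary cells its ratio was -0.62 (-0.93 to -0.31). Rel, the c-Rel subunit, rose from 51.6 to 104 CPM (1.01).

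Glucocorticoid-induced genes had a median of -0.01 over 17 genes, of which 1 rose and 2 fell. The Selp/Ackr1/Lrg1 cells had a median of -0.18 over 16 genes, where Mt1 and Per1 (1.12) rose and Fkbp5, Zbtb16, Mt2 (-2.08) and Errfi1 (-1.26) fell. Fkbp5, a chaperone of the steroid receptors, fell from 115 to 47.3 CPM (log2 ratio -1.29), and Zbtb16, a transcriptional repressor, fell from 146 to 56.5 CPM (-1.37). Mt1, the metallothionein that glucocorticoids and metals induce, rose from 48.6 to 254 CPM (2.39), with UMIs in 22 and 18 cells and 71 of 220 UMIs in 1 cell. Sgk1 stood at 262 and 415 CPM (-0.66).

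Growth factor pathways gave single members past the rule, which is near the background for lists of this size. Of 11 VEGF and Tie genes 1 rose, Vegfc, a ligand of Vegfr3, from 82.9 to 206 CPM (log2 ratio 1.32). The receptors Kdr (0.36, a gate gene) and Tie1 (0.67) stayed short of the rule. Of 13 BMP and Id genes 1 rose, Smad6, an inhibitory Smad, from 25.3 to 50.8 CPM (1.01). Without the highest cell of each library for each gene, 0 of these 13 stayed past the rule. Id1 and Id3, targets of BMP signals, had ratios of 0.09 and -0.24. In the Selp/Ackr1/Lrg1 cells 0 of 9 measured VEGF and Tie genes and 0 of 13 measured BMP and Id genes rose. Of 12 arterial genes outside the gate 3 rose, Stmn2 (1.12), Alpl (1.81) and Unc5b (1.06), and in the Selp/Ackr1/Lrg1 cells Stmn2 rose (1.26) while Alpl had 0 and 0 and Unc5b 3 and 3 UMIs.

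In several groups 0 genes passed the rule in either direction in the venous-gated cells. For groups of this size that is near the background of 2.51% rising and 2.41% falling. The groups were 20 junction and barrier genes (median log2 ratio 0.12), 12 Notch genes (0.27), 13 heat shock genes (-0.09) and 48 nuclear genes of oxidative phosphorylation (0.09). Of 8 Kruppel-like factors, Klf10, a target of TGF-beta signals, rose from 34.4 to 87.7 CPM (1.35) and in the Selp/Ackr1/Lrg1 cells from 24.8 to 118 CPM (2.25). Klf2 and Klf4, factors of laminar flow, had ratios of -0.05 and -0.06. Among 17 matrix genes Mgp, an inhibitor of calcification and of BMP ligands, rose from 315 to 645 CPM (1.04), and of 12 fatty acid uptake genes Acsl1 rose on 21 against 10 UMIs (1.26).

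**Figure D5:**
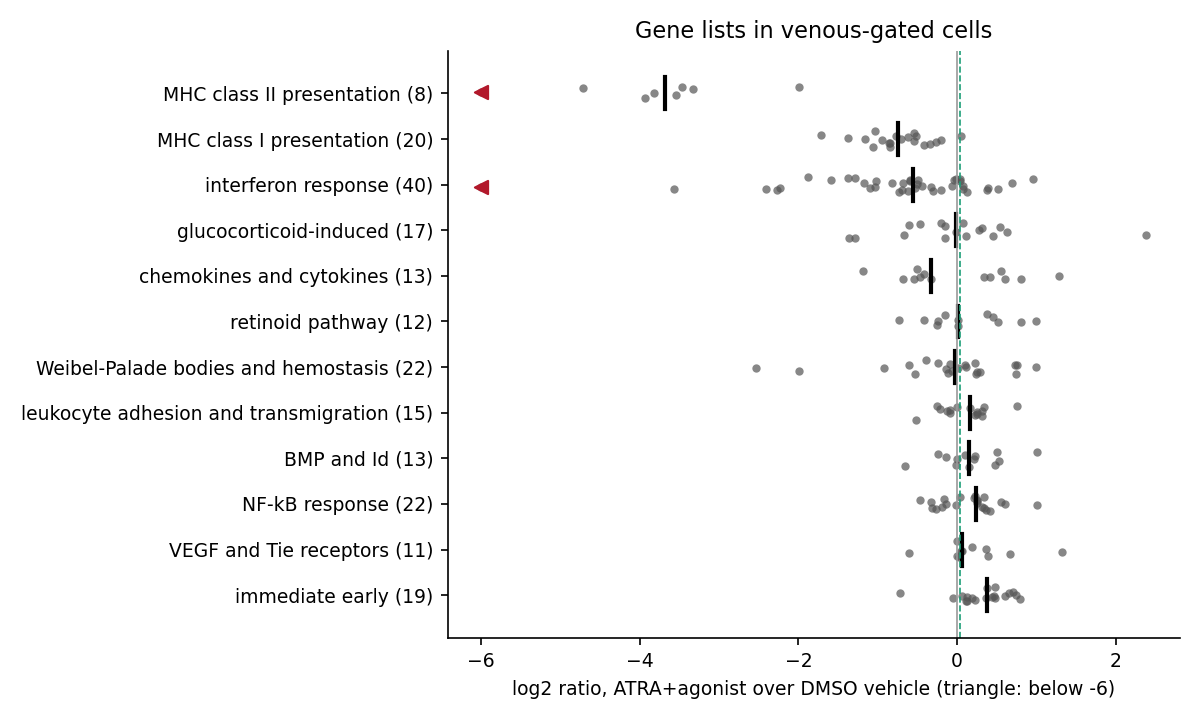
Log2 ratios of CPM (ATRA+agonist over DMSO vehicle, x axis) in venous-gated cells for the measured members of 12 gene lists (number in brackets), with a black line at each list's median, a dashed line at the median of all 7093 genes (0.04) and triangles for members below -6. The class II list has its median at -3.68, class I at -0.74, interferon response at -0.56 and immediate early genes at 0.37.

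By size, outside any list, the changes were sought among 3217 genes with at least 100 UMIs whose venous level, multiplied by 4, reached that of every other gated class. The 10 largest rises were Prickle2, Stxbp6, Tmem255b, Robo2, Epha4, Klf10, Elp4, Il33, Pltp and Pde12. Stxbp6, a binder of SNARE proteins, rose from 112 to 337 CPM (log2 ratio 1.59) and in the Selp/Ackr1/Lrg1 cells by 1.94. Tmem255b rose from 46.5 to 134 CPM (1.52), and Pltp, the phospholipid transfer protein, from 131 to 299 CPM (1.18). In capillary-gated cells the ratios of these genes were 0.62, 0.57 and 0.73.

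Not every rise reached 2-fold in the Selp/Ackr1/Lrg1 cells, where UMIs were few. Prickle2, a planar polarity protein, rose from 33.4 to 104 CPM (log2 ratio 1.64). In the Selp/Ackr1/Lrg1 cells it had 30 and 20 UMIs (0.91, 0.05 to 1.80). Robo2, a receptor of Slit ligands, rose from 39.5 to 110 CPM (1.47), with 20 and 14 UMIs there (0.84, -0.22 to 1.94). Both of these intervals include the ratio in all venous-gated cells. Elp4, an Elongator subunit, rose from 44.5 to 111 CPM (1.32), with -0.07 there (-0.94 to 0.78). Epha4, an ephrin receptor, rose from 74.9 to 196 CPM (1.39) with 51 of 170 UMIs in 1 cell. Its ratio in the Selp/Ackr1/Lrg1 cells was 0.57 (-0.04 to 1.18).

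The largest falls included Ubd, F5, Igtp, D5Ertd615e, Gbp2, Tcof1, Cd274, Tap1 and Carmil1, of which Ubd, Igtp, Gbp2, Cd274 and Tap1 belong to the interferon or class I lists. Carmil1, a regulator of actin capping, fell from 113 to 34.6 CPM (log2 ratio -1.71) and lay mostly in Selp/Ackr1/Lrg1 cells, with 26 of its 30 and 108 of its 112 UMIs there. D5Ertd615e fell from 98.1 to 19.6 CPM (-2.32) and Tcof1, a nucleolar protein, from 94.1 to 24.2 CPM. Mctp1, a membrane protein with calcium-binding domains and one of the genes most enriched over capillary-gated cells, fell from 1472 to 689 CPM (-1.10) and in the Selp/Ackr1/Lrg1 cells from 2334 to 1123 CPM.

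Fibroblast markers summed to 308 and 149 UMIs, of which 218 and 77 lay in 1 cell each. Platelet markers summed to 135 UMIs in the ATRA+agonist cells, 121 of them in 1 barcode, and to 21 UMIs in the DMSO vehicle cells. Mural markers summed to 289 and 480 UMIs and were nearly all Tagln (264 and 448 UMIs), which the Selp/Ackr1/Lrg1 cells carried at 518 and 734 CPM. Mural markers reached 3 UMIs in 21 and 33 cells. Lymphatic markers summed to 1285 and 979 UMIs (1482 and 990 CPM) and reached 3 UMIs in 11 and 10 cells, and glial markers to 1 and 55 UMIs, 54 of them in 1 cell. Ptprc, Pdgfra, Pax7 and Rgs5 were held to at most 1 UMI a cell by the gate, and results without the lymphatic-marked cells and the platelet-rich barcode are given with the alternatives.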

How the data were processed

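The deposited matrices gave unnormalized counts of UMIs for each gene in each barcode, made by the authors with Cell Ranger 7.2.0 per the file headers, on the mm10 build named in the methods. The authors' later filters and doublet calls are not in these counts. Here, barcodes with 300 to 5000 genes, under 20% mitochondrial and under 0.25% Hbb UMIs were kept, and the gate stated above was applied. The venous-gated members, gene lists and alternatives were chosen with earlier results of these data known.

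UMIs were summed over cells and scaled to CPM. Intervals of log2 ratios were exact conditional binomial, those of shares exact Clopper-Pearson, both at 95% and for counting error only. The floor of a gene at 0 was 3 counts over the group. Doublets were kept in the main values. Named genes were the gate genes, up to 6 members of a list with the most UMIs and up to 4 with the largest ratios among those with at least 100 UMIs, the 10 largest rises and falls, the 12 highest and 8 lowest venous to capillary ratios, and markers of other cell types. Other named members, such as H2-DMb2, Ciita, F8, Rarb and Smad6, were chosen after their values were seen. Some list members are not reported here by name, though the list counts and medians include them. Motifs were searched on both strands of RefSeq promoter windows. The ratio code was tested on simulated data. Python 3.11.15, numpy 2.4.6, scipy 1.17.1, pandas 2.3.3 and matplotlib 3.10.9 were used.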

Additional observations from a re-analysis of the deposited data

Results flagged for a closer look

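Among listed genes outside the gates with at least 100 UMIs in both classes, 4 had a ratio (log2, ATRA+agonist over DMSO vehicle) on one side of 0 in venous-gated cells and on the other side in capillary-gated cells, with both counting intervals away from 0 and the ratios at least 1 apart. With 1 library per group the difference was not tested. Mgp had 1.04 in venous-gated and -2.57 in capillary-gated cells, where 1 DMSO vehicle cell held 1016 of 4677 UMIs, Mt1 had 2.39 and -1.51, Stat2 had 0.69 and -0.38, and Vcam1 had 0.31 and -1.75.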

How the results depend on the processing

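No paired analysis was possible because each group has 1 library and no test was run. In all 23 alternatives were computed, 4 of them chosen after seeing the data. With 1 library per group the spread between animals is unknown, and genes with few UMIs are limited by depth. Ratios here are log2, ATRA+agonist over DMSO vehicle, and the cause of a change was not tested by any alternative. The class II list had a median below -1 under every alternative, from -4.50 to -1.09, class I ranged from -0.81 to -0.51 and the interferon list from -0.86 to -0.33. The -1.09 came from means of log-normalized values. These are differences between mean log2 values of cells and not ratios of CPM, so that their size is not on the scale of the main values.

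The counts of genes past 2-fold depended on the UMI minimum, with 624 higher and 593 lower at 10 UMIs and 31 and 50 at 100 UMIs. With each cell thinned to 1000 UMIs they were 49 and 61. With means of log-normalized values, where the same limit was set on that other scale, they were 1 and 11. Median-of-ratios scaling gave 139 higher and 194 lower, and it moved all genes by 0.07. Thinning gave the chemokine list a median of -0.91 and Nfkbia -0.011. Means of log-normalized values gave medians of -1.09 for class II and 0.19 for immediate early genes, and differences of -0.28 for Vcam1, -0.055 for Nfkbia and -0.038 for Prkg1. In the Selp/Ackr1/Lrg1 cells alone the immediate early median was 0.56 and Elp4 had -0.072. A gate without Selp gave Il33 -0.20, and a venous sum of at least 5 gave Rbp7 1.61 and the fibroblast markers -1.68. Without the lymphatic-marked cells and the platelet-rich barcode the platelet list had -0.22.

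Doublet removal was set to take out 7.5% of the kept cells of each library. With 15 neighbours a cell it took out 20 of 126 and 24 of 141 venous-gated cells (15.9% and 17.0%). Of the Vwf/capillary cells it took out 21.8% and 22.2%. Venous-gated cells were thus called more often than kept cells as a whole. With a neighbourhood of 1% of cells, added later, it took out 60 and 42 venous-gated cells (47.6% and 29.8%), again at 7.5% of kept cells. The ratio of venous shares of kept cells was then 0.671. The NF-kB median was then -0.27 and the class II median -4.50, while the ratios were -0.88 for Selp, -2.27 for Vcam1, 0.18 for Rbp7, -2.13 for Il6, -0.095 for Vwf, -0.21 for Nfkbia, 0.23 for Fkbp5 and -0.086 for Prkg1.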
